A study of Mus musculus with 4 samples.

Results

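The cells described here carried transcripts of both Neurod1 and Eya2 in the embryonic mouse cochlea at embryonic day 12.5 (E12.5). Cells with at least 1000 detected genes and under 10% mitochondrial UMIs were kept (a UMI, or unique molecular identifier, marks 1 counted RNA molecule), and members were chosen by measured values, at least 1 UMI of Neurod1 and at least 1 of Eya2. In the 2 E12.5 libraries 121 of 648 and 153 of 684 kept cells met this rule (replicates 1 and 2), 274 of 1332 in all, while the whole series held 5950 kept cells. That is 18.7% (exact 95% binomial interval 15.7 to 21.9) and 22.4% (19.3 to 25.7) of the cells, and the intervals, here and below, cover counting error only. The study profiled cochlear duct cells at E12.5 and E14.5 with 10x Genomics single-cell RNA sequencing, 2 libraries per age. All 4 libraries came from mice of the genotype Sox2-GFP/WT, a reporter of the progenitor gene Sox2, and from cells sorted for GFP. No untreated or wild-type group without the reporter was used here. Which animals went into which library is not in the labels. Between ages, p-values therefore measure only the spread between these libraries. Within E12.5 they measure only how far differences between groups of cells vary from library to library. Both may be technical.

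Neurod1 is a basic helix-loop-helix (bHLH) transcription factor that drives neuronal differentiation, and inner ear ganglion neurons depend on it. Eya2 is a transcriptional coactivator and phosphatase that acts in placodes and their derivatives. During inner ear development, neuroblasts that have switched on Neurog1 and then Neurod1 leave the otic epithelium, divide outside it and become the sensory neurons of the cochlear and vestibular ganglia. Notch signalling and the Id proteins hold such cells back, since Id proteins bind the partners that bHLH factors need.

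The member cells had medians of 21360 and 21115 UMIs and 4790 and 4806 genes. Their summed counts were 2733555 and 3597122 UMIs. Levels below are counts per 1000000 UMIs (CPM) of a class of cells summed within a library, given for replicate 1 and then replicate 2, and they compare a gene between classes and not 1 gene with another. The members were compared, within each library, with 221 and 278 epithelial cells, which had a UMI of Epcam, an epithelial adhesion molecule, and were no members or neurons. They were also compared with 168 and 101 neurons, which had at least 3 UMIs of Stmn2, a microtubule regulator of growing neurites, and none of Eya2. These classes had medians of 21083 and 20491 UMIs (epithelium) and 16051.5 and 20461 UMIs (neurons).

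The rule genes themselves are a description. A member held 1 to 87 UMIs of Neurod1 (median 19) in replicate 1 and 1 to 91 (median 18) in replicate 2, and 1 to 17 or 1 to 21 of Eya2 (median 3 in both). Eya2 set the edge of the class: 33 and 42 members had exactly 1 UMI of it, against 7 and 8 with exactly 1 of Neurod1. Just outside the rule lay 58 and 60 cells with Neurod1 but no Eya2, and 45 and 49 with Eya2 but no Neurod1. Members with a single UMI of either gene (38 and 46 cells) had Isl1 at 1446 and 1693 CPM and Nefl at 811 and 1027 CPM, and the cells with Neurod1 but no Eya2 had Isl1 at 519 and 1213 CPM and Nefl at 879 and 1055 CPM. The cells with Eya2 but no Neurod1 had Isl1 at 157.5 and 143.6 CPM and Epcam at 551 and 658 CPM. In the class sums, Neurod1 stood at 917 and 895 CPM in members, 0.201 and 0.935 in epithelium and 99.4 and 313 in neurons.

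The label of neuroblasts was checked against markers that the rule did not use, except that the values of Fgf8 are a description and no check. Fgf8, a signalling ligand listed as a further marker of these cells from earlier results on the same data, had a UMI in 21 of 121 members (17.4%, exact 95% interval 11.1 to 25.3) and 37 of 153 (24.2%, 17.6 to 31.8). It was found in 3.17% and 3.6% of epithelial cells and in 1.79% and 0% of neurons. With 3 cells as the upper limit of a count of 0, 0 of 101 neurons allows up to 2.97% (3.59% by the exact interval). As a measure of free RNA, cells rich in the collagen gene Col3a1 (40 per library, medians of 13790.5 and 15703 UMIs) gave 0 of 40 in both libraries. That allows up to 7.50% by the limit of 3 cells and 8.81% by the exact interval. After every cell was thinned to 10000 UMIs, the Fgf8 shares of members were 14.1% and 22%. Neurog1, the factor that starts the neuronal programme of the ear, had a UMI in 16.5% and 18.3% of members, 0.453% and 1.08% of epithelial cells and none of the 40 reference cells in either library. Isl1, a homeobox gene of sensory neurons, was found in 85.1% and 92.8% of members, against 2.50% and 0% of the reference cells. It was also found in 60.2% and 64.75% of epithelial cells and in 16.1% and 44.6% of neurons. Sox2 had a UMI in 9.92% and 15.7% of members, against 53.4% and 54.7% of epithelial cells and 2.38% and 4.95% of neurons. The reference cells came from the same sort and held Sox2 in 47.5% and 35.0% and glial markers at 2839 and 1404 CPM, so they give no background for Sox2 or the reporter. The reporter transcript Egfp was found in 73.6% and 71.2% of members and in 82.5% and 77.5% of the reference cells.

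Most members held many neuronal and few cell cycle transcripts. Of the members, 94 and 109 (77.7% and 71.2%) had at least 3 UMIs of Stmn2 and none of Epcam, 9 and 16 had Epcam with under 3 Stmn2, 8 and 12 had both and 10 and 16 had neither. The summed level of the S and G2/M phase gene lists was 3717 and 3562 CPM in the cells with Stmn2 alone, against 12650 and 16460 CPM in those with Epcam alone and 12790 and 14650 CPM in those with neither. By these genes the label of neuroblasts covers a part of the class, and the cells are called Neurod1 and Eya2 positive cells below.

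**Figure D1:**
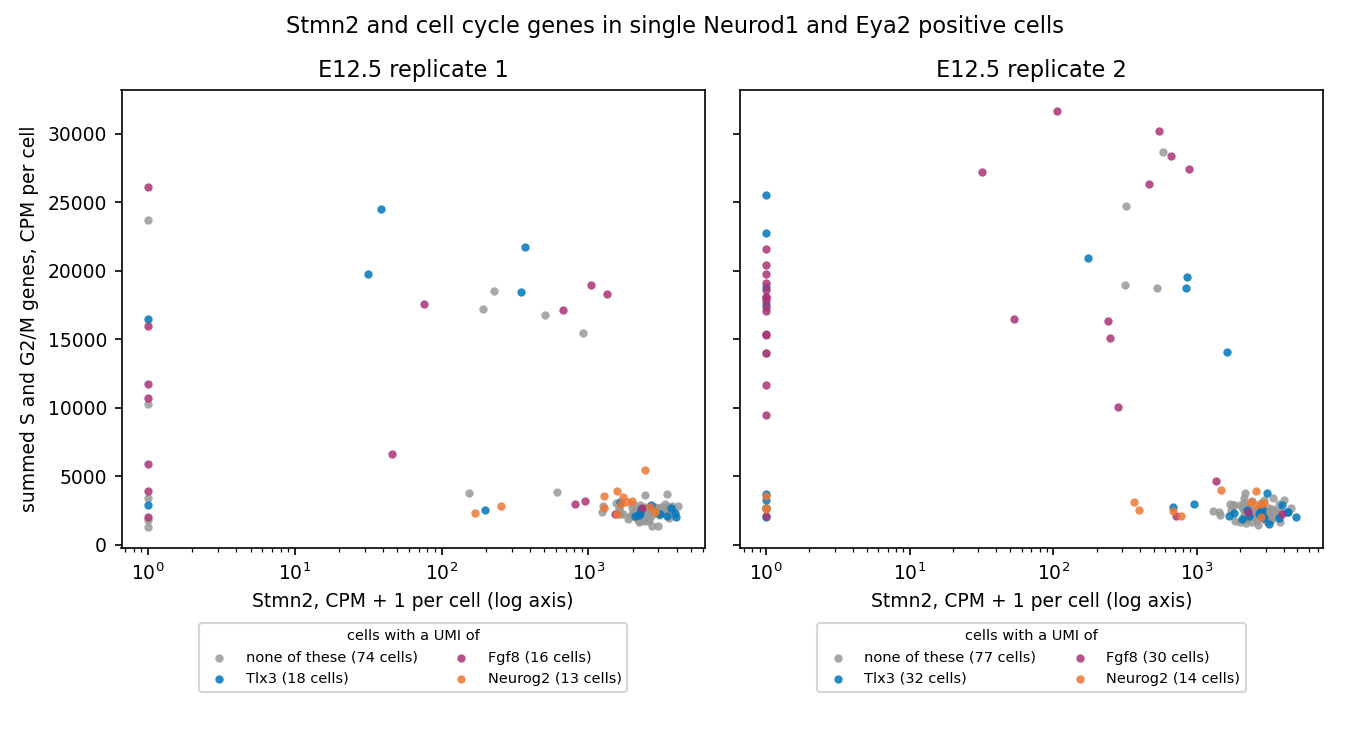
Single member cells of each E12.5 library, with Stmn2 in CPM + 1 on a log axis and the summed S and G2/M phase genes in CPM on a linear axis; each point is 1 cell, coloured by which of the marker genes Neurog2, Tlx3 and Fgf8 it held. Cells with high cell cycle levels range from no Stmn2 up to 1329 and 1626 CPM (replicates 1 and 2), and many of them are Fgf8 cells. The dense group at the lower right has high Stmn2 and low cell cycle levels.

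Cells rich in cell cycle transcripts stood apart from the others in both libraries. With a limit of 6000 CPM of cell cycle genes, chosen after the values were seen, 20 of 121 and 38 of 153 members lay above (16.5% and 24.8%), and only 3 and 0 cells lay between 5000 and 7000 CPM. Their median cell cycle levels were 17400 and 18740 CPM, against 2520 and 2451 CPM in the rest. Their median Stmn2 level was 60.0 and 0 CPM, against 2261 and 2512 CPM. Only 11 of 20 and 23 of 38 of them had under 3 UMIs of Stmn2, and the highest levels were 1329 and 1626 CPM. Of the cells above the limit, 9 of 20 and 25 of 38 belonged to the Fgf8 subset described further on, and 10 and 23 held a UMI of Epcam. They also held more of both rule genes, with medians of 42 and 37 UMIs of Neurod1 against 16 and 14, and of 9 and 7 UMIs of Eya2 against 2 and 2. Their median depth was 28441.5 and 26209.5 UMIs, against 20750 and 20543, and the part of depth in these values was not tested.

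**Figure D2:**
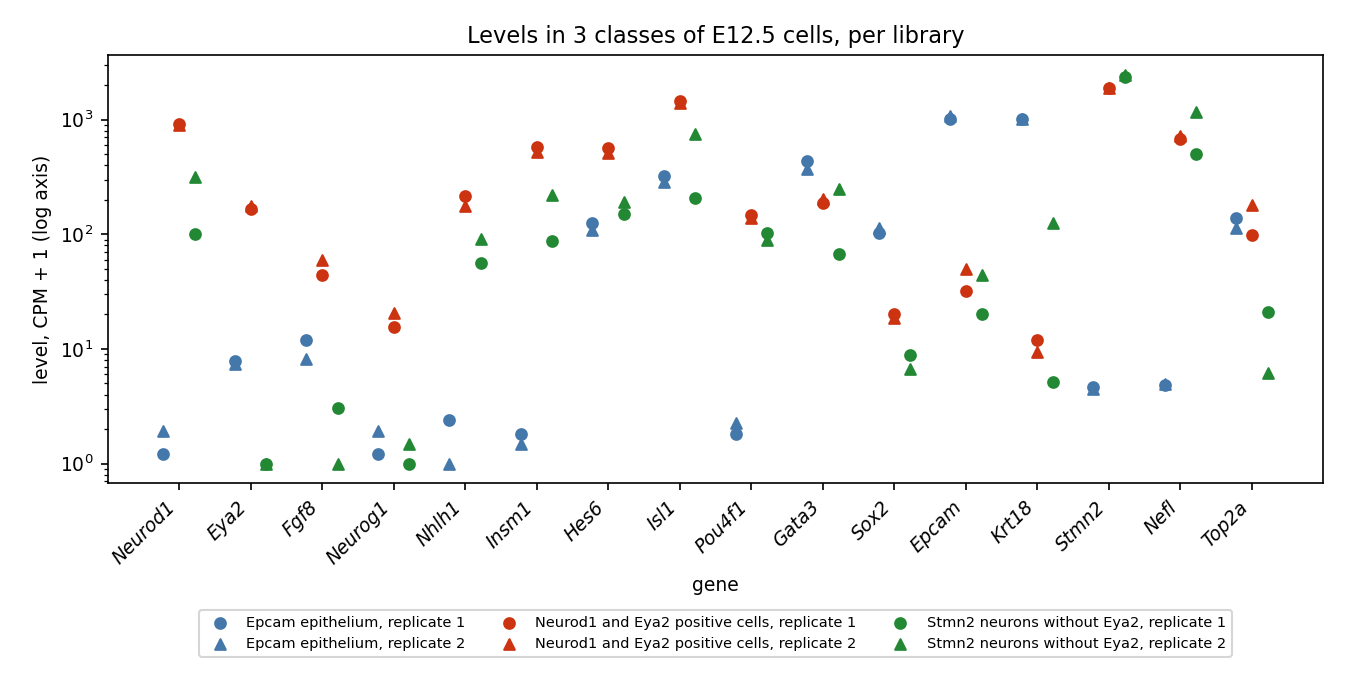
Levels of 16 genes in CPM + 1 (log axis) in Neurod1 and Eya2 positive cells, epithelium and neurons; circles are replicate 1 and triangles replicate 2. Fgf8, Neurog1, Nhlh1, Insm1, Hes6 and Isl1 are higher in the member cells than in both other classes in each library, and Epcam and Krt18 are highest in epithelium.

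Against epithelium, edgeR tested 12088 genes other than the rule genes, of which 2836 (23.5% of those tested) were higher in members and 2867 (23.7%) were lower at an adjusted p under 0.05. The median log2 difference over all genes tested was -0.01. Against neurons, 1095 genes (9.06% of those tested) were higher and 1096 (9.07%) lower, with a median of 0.00 after rounding. The 2 comparisons share the member sums, so their values are set side by side below, and genes higher in both are only a description. In sums, fewer cells with a transcript and less of it per cell cannot be told apart.

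The neurons were a mixed class, which touches every value against them. Isl1 had a UMI in only 16.1% and 44.6% of them. Neurod1 had a UMI in 32.7% and 50.5% of them, so the absence of Eya2 alone kept these cells out of the members. Eya2 is easily missed: in cells thinned as for Fgf8 above, it was still found in only 71.1% and 74.7% of members. How many neurons, with or without Isl1, transcribed Eya2 without a counted UMI was not tested. The classes may therefore overlap. The largest decreases in members against neurons included transcription factors and guidance genes known from other neuron types, such as Barhl2 (2.93 and 1.11 CPM in members, 57.4 and 164 CPM in neurons), Lhx9 (2.93 and 2.78, against 97.3 and 174 CPM) and Robo3 (7.68 and 13.3, against 219 and 250 CPM). A second comparison, added after the values were seen, therefore used only the 27 and 45 neurons with a UMI of Isl1. It called 432 of 11992 genes higher (3.6%) and 256 lower (2.13%) in members. In it Robo3 was not lower (log2 difference 1.81, edgeR adjusted p = 0.30). Counts of called genes in lists moved in both directions there. The Notch list had 4 higher and 0 lower (6 and 2 at an unadjusted p under 0.05), against 8 and 1 with all neurons. The fibroblast growth factor list had 1 and 2, against 4 and 1, and the transition list described below 1 and 4, against 2 and 8. Larger counts came from the neuronal cytoskeleton list (1 and 10, against 0 and 9) and the epithelial junction list (0 and 6, against 0 and 0). Not every call against neurons was repeated there. For counts at an unadjusted p under 0.05, here and below, the share over all genes tested was not computed. Such counts show only how far the count of a list depends on the adjustment.

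**Figure D3:**
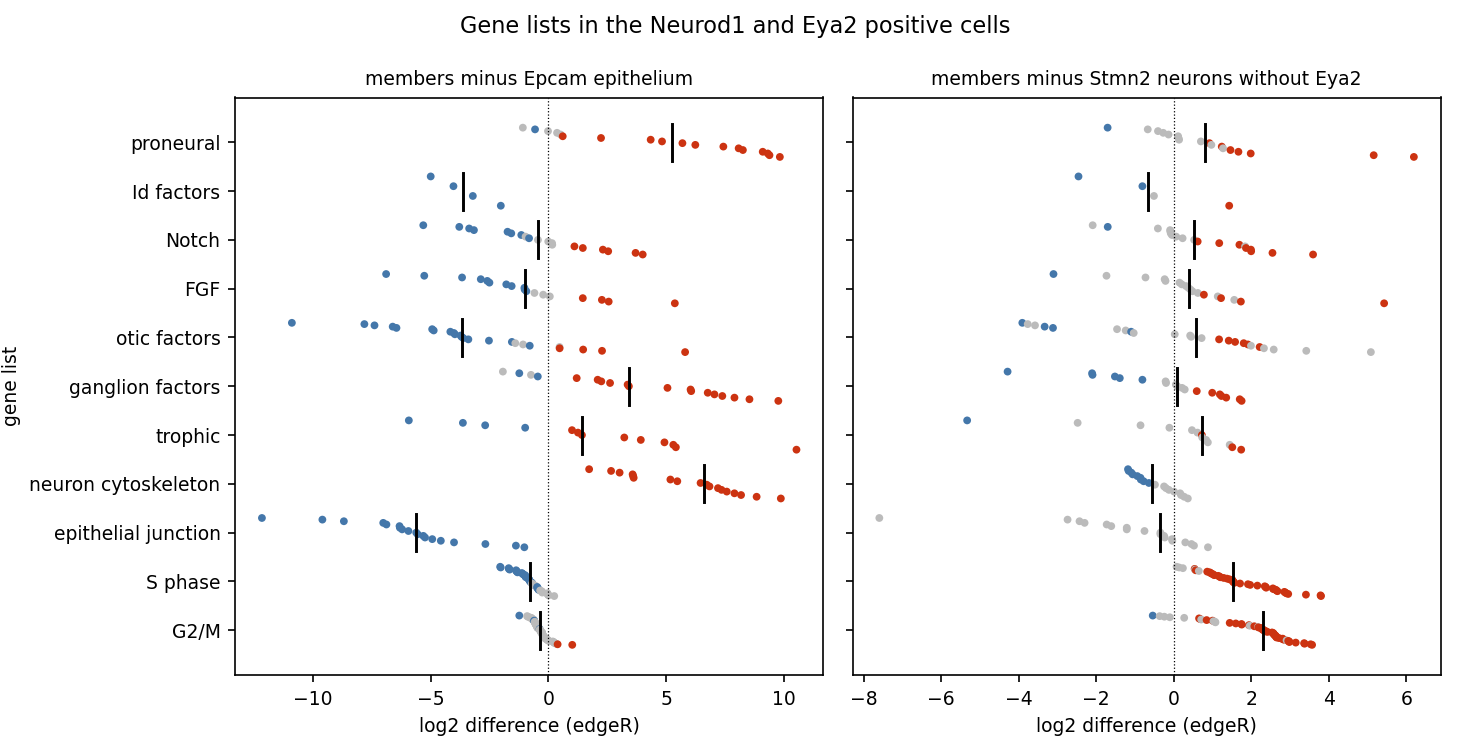
Each point is 1 gene of a list at its fitted log2 difference between members and epithelium (left) or neurons (right); red points are higher and blue points lower at an edgeR adjusted p under 0.05, grey points passed neither, and black bars are medians of the genes tested. The median of the proneural list lies right of 0 in both panels and that of the cytoskeleton list only in the left one. The medians of the S and G2/M lists lie left of 0 against epithelium and right of 0 against neurons. Apart from the cytoskeleton list on the left and the S phase list on the right, each of these lists has genes on both sides of 0.

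Proneural genes were mostly higher in members than in epithelium, and 7 were higher than in neurons. Of 21 bHLH factors and partners listed, 18 were tested, 13 were higher and 1 lower than in epithelium (median log2 difference 5.25, or 4.94 with genes absent from a class at their lower bound), and 7 were higher and 1 lower than in neurons (median 0.81). Insm1, a zinc finger factor of delaminating and dividing neuronal progenitors, stood at 578 and 520 CPM in members, 0.804 and 0.468 in epithelium and 86.4 and 218 in neurons. The members were highest in both libraries, by 9.81 ± 0.50 (SE) against epithelium and 1.99 ± 0.29 against neurons on the log2 scale (edgeR adjusted p = 6.3e-06 and 0.0043). Nhlh1, a bHLH factor of newborn neurons, stood at 214 and 175 CPM in members, 1.41 and 0 in epithelium and 54.6 and 90.6 in neurons. It was higher against both classes (log2 8.25 and 1.47, edgeR adjusted p = 1.3e-05 and 0.014), but against the neurons with Isl1 its difference of 0.64 did not pass (adjusted p = 0.10). Its relative Nhlh2 was at 366 and 330.0 CPM in members and at 294 and 347.5 CPM in neurons, a difference of 0.14 that did not pass (edgeR adjusted p = 0.44), and was higher than in the neurons with Isl1 (log2 0.78).

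Hes6, a bHLH protein that works against the Notch effector Hes1 and promotes differentiation, stood at 560 and 509 CPM in members, 124 and 107 in epithelium and 151 and 191 in neurons. The members did not overlap with either class, and the differences were 2.23 ± 0.13 and 1.67 ± 0.13 (edgeR adjusted p = 9.4e-06 and 0.00043). Against the neurons with Isl1 the difference was 1.56 (adjusted p = 3.4e-05). Neurog1 reached only 14.6 and 19.5 CPM in members, but 0.201 and 0.935 in epithelium and 0 and 0.470 in neurons. Its difference to epithelium was 4.82 (edgeR adjusted p = 0.00019). Neurons held a single UMI of it, so that the ratio of members to neurons was 87.9 with a counting interval of 15.5 to 3503. Msc, a bHLH repressor, was at 61.5 and 55.9 CPM in members and 1.21 and 1.09 in epithelium, and its higher level than in neurons (17.1 and 35.2 CPM) ended with the neurons that had Isl1 (log2 -0.34). Tcf3, the ubiquitous partner that bHLH factors bind, went the other way: it was lower than in epithelium by 0.57 and higher than in neurons by 0.92 on the log2 scale (edgeR adjusted p = 0.0042 and 0.0035).

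Promoters were searched for short E-box motifs, which bHLH factors such as Neurod1 bind. Sequence is shown for Nhlh1 and Hes6, because their windows held a searched motif. Both genes were higher in members than in both other classes. Windows of 250 bases before the RefSeq start site were taken on GRCm38.p6, the most upstream one per gene, and the Neurod1 window overlaps a UTR of the GENCODE annotation by 115 bases. Of 9 genes looked up (Neurod1, Eya2, Fgf8, Neurog1, Neurod4, Nhlh1, Msc, Insm1 and Hes6) 5 had an entry, and 2 held the searched E-boxes, CAGATG (or CATCTG on the other strand) and CAGCTG, which reads the same on both strands. The motifs do not overlap each other and are in capitals. Nhlh1 lies on chromosome 1 on the minus strand, with its window at chr1:172057597-172057846 and CAGATG beginning 203 bases before the start site. The window of Hes6, also on the minus strand, is at chr1:91414039-91414288, with CAGCTG beginning 171 bases before the start site.
Nhlh1: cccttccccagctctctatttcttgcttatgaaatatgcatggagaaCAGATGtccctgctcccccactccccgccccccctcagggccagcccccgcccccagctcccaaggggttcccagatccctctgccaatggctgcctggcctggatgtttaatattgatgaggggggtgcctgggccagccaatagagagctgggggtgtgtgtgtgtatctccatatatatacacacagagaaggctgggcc
Hes6: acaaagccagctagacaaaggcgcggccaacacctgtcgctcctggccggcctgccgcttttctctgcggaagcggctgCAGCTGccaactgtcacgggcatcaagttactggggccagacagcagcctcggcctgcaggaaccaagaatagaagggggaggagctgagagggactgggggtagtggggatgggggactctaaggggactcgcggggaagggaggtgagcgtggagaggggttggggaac
Of 27025 windows of this length over all genes, 14.5% held CAGATG or CATCTG and 12.7% CAGCTG, and 25.3% held either. The windows of Neurod1, Neurog1 and Neurod4 held neither motif. A match to either motif in 2 of 5 windows is a description of these letters and shows no binding.

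The 4 Id genes were all lower in members than in epithelium. Id3 stood at 82.3 and 62.3 CPM in members against 2358 and 2288 CPM in epithelium, and the classes did not overlap (log2 -4.99 ± 0.15, edgeR adjusted p = 5.3e-07). Id1, Id2 and Id4 fell by 2.02, 3.21 and 4.03. The median of the list was -3.62. Against neurons the list split, with Id1 higher (log2 1.43) and Id3 and Id4 lower (-0.81 and -2.46). Against the neurons with Isl1, Id2, Id3 and Id4 were lower (-1.26, -1.93 and -3.07) and Id1 was at 0.04 (adjusted p = 0.96).

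Of the Notch list 19 genes were tested. Against epithelium 6 were higher and 8 lower (median -0.44), and against neurons 8 were higher and 1 lower (median 0.53). The ligands Dll1 and Dll3 were higher than in epithelium, Dll3 at 29.3 and 27.2 CPM against 1.61 and 1.87 (log2 4.0, edgeR adjusted p = 2.0e-05). Jag1, the ligand of the prosensory epithelium, was lower, at 81.2 and 78.4 CPM against 282 and 256 (log2 -1.73). All 3 receptors were lower than in epithelium, with Notch1, Notch2 and Notch3 at log2 -1.57, -3.16 and -5.31. Mfng, a glycosyltransferase that modifies Notch receptors, stood at 149 and 135 CPM in members, 10.9 and 11.4 in epithelium and 27.7 and 46.0 in neurons. Members were highest in both libraries (log2 3.70 and 2.0, edgeR adjusted p = 7.7e-06 and 0.0010, and 1.05 against neurons with Isl1).

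The effectors of Notch did not move together. Hes1 was lower than in epithelium (134 and 47.8 CPM against 1003 and 859, log2 -3.36), and Hey1 and Hey2 were lower too (-1.15 and -3.78). Hes5 was higher, at 91.1 and 119 CPM against 31.4 and 11.4 (log2 2.54, edgeR adjusted p = 0.0049). Without cells that held Neurog2 or Tlx3, genes known from other ganglia, the Hes5 difference was -0.27 (adjusted p = 0.82 in edgeR). Nrarp, a feedback inhibitor of Notch, did not pass against epithelium (57.4 and 62.3 CPM against 69.6 and 53.6) and was higher than in neurons (8.20 and 13.1 CPM, log2 2.55, edgeR adjusted p = 0.0010) and than in those with Isl1 (1.60).

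Among fibroblast growth factors, Fgf8 was at 43.5 and 58.7 CPM in members, 10.9 and 7.17 in epithelium and 2.05 and 0 in neurons. Members were highest in each library, by 2.56 ± 0.34 and 5.43 ± 0.56 on the log2 scale (edgeR adjusted p = 0.00059 and 0.0013). Against the neurons with Isl1 the Fgf8 difference was 4.10 (adjusted p = 0.0022). Since Fgf8 was listed as a marker from earlier results on the same data, these Fgf8 values are a description and their p-values are no support. Fgf10, a ligand needed for inner ear growth, was at 67.7 and 79.0 CPM, against 14.5 and 16.5 in epithelium (log2 2.27) and 14 and 32.9 in neurons (log2 1.73), but the Isl1 neurons held as much of it (67.8 and 68.1 CPM, log2 0.21). Fgf3 and Fgf5 were also higher than in epithelium, while the epithelial ligands Fgf9 and Fgf20 were lower. Receptors and targets were mostly lower, with Fgfr1 and Fgfr2 at -1.79 and -5.26 and the feedback inhibitor Spry1 at -3.66. Over the list of 18 tested genes, 4 were higher and 11 lower than in epithelium (median -1.01), and 4 were higher and 1 lower than in neurons.

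Transcription factors of the otic epithelium were mostly lower in members, 17 of 24 against 4 higher (median -3.65). Dlx5 had no UMI in members and 51.5 and 70.9 CPM in epithelium, at least 132-fold lower with 3 counts over the class as the floor. Sox9 was at 9.88 and 6.39 CPM against 247 and 245 (log2 -4.93). Sox2 was at 19.0 and 17.8 CPM against 102 and 113 CPM (log2 -2.52, edgeR adjusted p = 1.7e-05). Tbx1, which restrains neurogenesis in the otic vesicle, fell by 6.60. Eya1, the paralog of Eya2, was lower (73.5 and 57.3 CPM against 115 and 113, log2 -0.79). Gata3, which marks the cochlear rather than the vestibular ganglion, was at 185 and 201 CPM against 437 and 370 and did not pass (log2 -1.07, adjusted p = 0.054). It was lower than in the neurons with Isl1, which had 334 and 512 CPM (log2 -1.07, edgeR adjusted p = 0.0014).

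Factors of sensory ganglia were higher in members than in epithelium in 15 of 19 cases and lower in 2 (median 3.41). Isl1 was at 1442 and 1401 CPM against 321 and 287 (log2 2.24), and at 208 and 746 CPM in neurons. Pou4f1 was at 146 and 137 CPM against 0.804 and 1.25 (log2 7.04, edgeR adjusted p = 4.0e-07). Shox2 was at 445 and 339 CPM against 1.41 and 2.03 (log2 7.89) and St18 at 51.2 and 38.1 CPM with a single UMI in epithelium, a ratio of 498 (88.7 to 19750). Against neurons 7 were higher and 6 lower (median 0.09). The higher calls of Pou4f1 and Shox2 against neurons (log2 0.59 and 1.35) ended with the neurons that had Isl1 (-0.39 and 0.34). Sox4 was lower than in neurons by 1.52, at 360 and 342 CPM against 1059 and 976 (edgeR adjusted p = 0.00016), which ended with the Isl1 neurons (-0.01).

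Receptors for trophic factors were among the genes higher in members. Of 13 trophic genes tested, 9 were higher and 4 lower than in epithelium (median 1.42), and 3 were higher and 1 lower than in neurons (median 0.73). Ntrk2 and Ntrk3, the receptors of BDNF and NT-3 on which cochlear and vestibular neurons depend, were at 127 and 115 CPM and at 93.7 and 97.6 CPM (log2 3.92 and 5.30 against epithelium). Against the neurons with Isl1 none of the 13 genes passed in edgeR, and 4 had an unadjusted p under 0.05, 2 in each direction. The ligand Bdnf was higher than in epithelium, at 61.5 and 43.1 CPM against 25.9 and 18.6 (log2 1.25, edgeR adjusted p = 0.0011), and Ntf3 was lower, at 8.41 and 12.5 CPM against 70.0 and 69.8 (log2 -2.68).

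All 18 neuronal cytoskeleton genes were higher in members than in epithelium (median 6.58), and 0 were higher and 9 lower than in neurons in edgeR (median -0.56). At an unadjusted p under 0.05, 3 were higher and 10 lower than in neurons, and DESeq2 called 0 higher and 9 lower. Ina, a neurofilament protein, was at 490 and 528 CPM in members, 0.402 and 0.623 in epithelium and 1051 and 1149 in neurons. Members lay between the classes, with log2 differences of 9.86 ± 0.16 and -1.09 ± 0.08 (edgeR adjusted p = 6.2e-08 and 0.00042). Mapt, Stmn3 and Tubb2a had the same order. Against the neurons with Isl1, 1 of the 18 genes was higher and 10 were lower, with Ina at -0.48, Nefl at -0.83 and Nefm at -0.62. RNA-binding and synaptic genes were higher than in epithelium in 17 of 18 cases (median 5.50), and higher in 3 and lower in 8 against neurons (median -0.31). Neurons with Isl1 gave 0 higher and 3 lower in edgeR (1 and 8 at an unadjusted p under 0.05).

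The opposite held for epithelial junction and keratin genes: all 19 were lower than in epithelium (median -5.61, or -5.31 with bounds). Against neurons none passed in edgeR, 2 were lower at an unadjusted p under 0.05 and DESeq2 called 1 lower. Cldn4 had no UMI in members and 154 and 141 CPM in epithelium, at least 309.6-fold lower. Krt18 was at 11 and 8.34 CPM against 1004 and 1019 (log2 -6.87), and Cdh1 held 1 UMI in each library. Against the Isl1 neurons, which held more Krt18 (19.1 and 250.1 CPM), 6 of the 19 were lower. The summed level of 4 epithelial markers was 28.2 and 15.6 CPM in members, 1699 and 1722 in epithelium and 10.2 and 207 in neurons.

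Genes of cell shape transition and adhesion did not follow 1 pattern. Of 16 tested, 10 were higher and 5 lower than in epithelium (median 2.74), and 2 were higher and 8 lower than in neurons. Zeb1 and Zeb2, repressors of epithelial genes, were higher than in epithelium, Zeb2 at 191 and 190.4 CPM against 3.62 and 3.58 (log2 5.77). Scrt2, a neuronal repressor of the same zinc finger superfamily as Snai1, was at 49.4 and 48.7 CPM with no UMI in epithelium, at least 186-fold higher. Snai1 itself was lower, with 3 UMIs in members and 17.3 and 15.3 CPM in epithelium, a ratio of 34.1 (11.5 to 167). The adhesion molecules Cdh2 and Ncam1 were higher than in epithelium (log2 1.73 and 4.33), and Ncam1 was lower than in neurons (-0.91). Of 30 guidance genes, 12 were higher and 9 lower than in epithelium (median 0.13). Among them Cxcr4, a chemokine receptor of migrating cells, was at 79.7 and 82.8 CPM against 11.5 and 9.66 (log2 2.98), and Nrg1, the ligand that supports Schwann cells, was at 96.9 and 90.9 CPM against 3.22 and 2.03 (log2 5.21). Its receptor gene Erbb3 was lower (1.46 and 0.834 CPM against 83.0 and 81.2, log2 -6.15).

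Summed levels of S phase genes in members lay between those of both other classes. These sums pool the 20 and 38 cells above the cell cycle limit with the rest. Median S and G2/M levels per cell were 17400 and 18740 CPM above it, against 2520 and 2451 CPM. The rule for neurons, with or without Isl1, asked for at least 3 UMIs of Stmn2, and that for members did not. Of the member cells above the limit, 11 of 20 and 23 of 38 had fewer. The part of these rules in the cell cycle and cytoskeleton differences to neurons was not tested. Of 43 genes of S phase none rose and 29 were lower than in epithelium in edgeR (median -0.78), and 38 were higher and 0 lower than in neurons (median 1.53). At an unadjusted p under 0.05 these counts were 0 and 35, and 40 and 0, and in DESeq2 0 and 20, and 30 and 0. Of 53 G2/M genes 2 were higher and 4 lower than in epithelium (median -0.35), and 41 were higher and 1 lower than in neurons (median 2.32). Against the neurons with Isl1, members were higher in 23 genes of S phase (median 1.36) and 15 of G2/M (median 1.51) and lower in 0 of either list, and at an unadjusted p under 0.05 these were 35 and 38, with 0 lower. Top2a, which untangles replicated DNA, was at 96.6 and 180 CPM in members, 138 and 112 in epithelium and 20.1 and 5.17 in neurons. Replicate 2 had the higher level in members and the lower one in neurons. Rrm2, which makes nucleotides for S phase, was at 79.7 and 104 CPM against 5.46 and 7.98 in neurons (log2 3.80 ± 0.17, edgeR adjusted p = 5.1e-05). Ccnd1 was lower than in epithelium and higher than in neurons (log2 -0.47 and 1.79), a call that ended with the neurons that had Isl1 (0.29), Ccnd2 was lower than in epithelium (-3.47), and Cdkn2d, an inhibitor of cyclin-dependent kinases, was higher (188 and 165 CPM against 25.3 and 26.2, log2 2.81). Gadd45g, a growth arrest gene of newborn neurons, was at 609 and 617 CPM in members, 203 and 185 in epithelium and 118 and 293 in neurons, and was higher in all 3 comparisons (log2 1.68, 1.68 and 0.90).

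By the rule for named genes, the largest increases against epithelium included Cdhr1, Ppp1r1c, Ina, Insm1, Tlx3, Neurog2, Ttc9b, Nhlh2, Islr2 and Syn2. Tlx3 and Neurog2 among them came from few cells, as described further on. The 12 largest decreases were Cldn4, Gata2, F3, Oc90, Gjb2, Bmp4, Ttr, Trpm3, Lum, Clu, Lect1 and Krt18. Oc90, the main protein of otoconia, was at 2.93 and 5.56 CPM against 2537 and 2284 CPM (log2 -9.07), and Gjb2, a gap junction protein of the cochlear epithelium, held 1 UMI in members against 79.8 and 82.8 CPM. Against neurons the largest increases were Dcdc2a, Rrm2, Pdlim4, Top2a, Actc1, Cdhr1, Ccdc88b, Ccna2, Spc25, Cdk1, Birc5 and Hist1h2ap, of which Rrm2, Top2a, Ccna2, Spc25, Cdk1, Birc5 and Hist1h2ap are genes of DNA replication, chromatin or mitosis. The largest decreases were C1ql1, Nrgn, Nr4a2, Barhl2, Lhx5, Lhx9, Mab21l2, Uncx, Robo3, Clu, Tshz2 and Lamp5. C1ql1 was uneven between the neuron libraries (370 and 15 CPM). In the comparison with Isl1 neurons, Clu and Tshz2 were lower too (log2 -5.54 and -1.64), while C1ql1 (-1.29), Nr4a2 (-1.15), Mab21l2 (-1.0), Uncx (0.11), Robo3 (1.81) and Lamp5 (2.48) did not pass, and Nrgn, Barhl2, Lhx5 and Lhx9 were not tested there.

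Some genes were higher in members than in both other classes, in 2 comparisons that share the member sums. The 10 with the largest difference, taking the smaller of the 2 values of a gene, were Dcdc2a, Actc1, Cdhr1, Ccdc88b, Rassf3, Tuba4a, Ppp1r14a, Dlc1, Fgf8 and Mfap4. Among them Fgf8 had been listed as a marker from earlier results on the same data, so its place here is no separate result. Dcdc2a, a microtubule-binding doublecortin protein, was at 58.9 and 74.5 CPM in members, 4.83 and 5.92 in epithelium and 1.37 and 1.41 in neurons. Its differences were 3.65 ± 0.18 and 5.55 ± 0.26 (edgeR adjusted p = 4.8e-06 and 5.4e-05). Ppp1r14a, an inhibitor of myosin phosphatase, was at 796 and 740 CPM, against 3.22 and 2.65 in epithelium and 65.2 and 192 in neurons (log2 8.12 and 2.74). Cdhr1, a cadherin-related protein known from photoreceptors, was at 75.4 and 58.9 CPM with no UMI in epithelium (at least 251-fold higher) and 3.76 and 11.3 CPM in neurons. Actc1, cardiac actin, was at 117 and 72.3 CPM, against 1.0 and 2.03 in epithelium and 3.07 and 17.4 in neurons, and Mfap4 at 993 and 878 CPM, against 177 and 167 and against 86.7 and 262. The same 10 genes were also higher than in the neurons with Isl1, with log2 differences from 1.27 for Dlc1 to 4.53 for Dcdc2a and adjusted p of at most 0.0077 in edgeR. Those neurons are part of the neurons by which the genes were picked, and the member sums are the same. The repeat is therefore no separate support.

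The members were not uniform. They were split, after the values were seen and without a test, by UMIs of Neurog2, Tlx3 and Fgf8, each cell taking the first subset it fitted. The first subset held Neurog2, a proneural factor of other cranial and spinal ganglia (13 and 14 cells). The second held Tlx3 (18 and 32 cells), the third Fgf8 (16 and 30 cells), and 74 and 77 cells held none of these. Cells of the first subset had medians of 18002 and 17219 UMIs, against 26753 and 24243 in the Tlx3 cells, 23510 and 25045.5 in the Fgf8 cells and 21147 and 20859 in the rest. A cell without a UMI may still transcribe the gene.

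**Figure D4:**
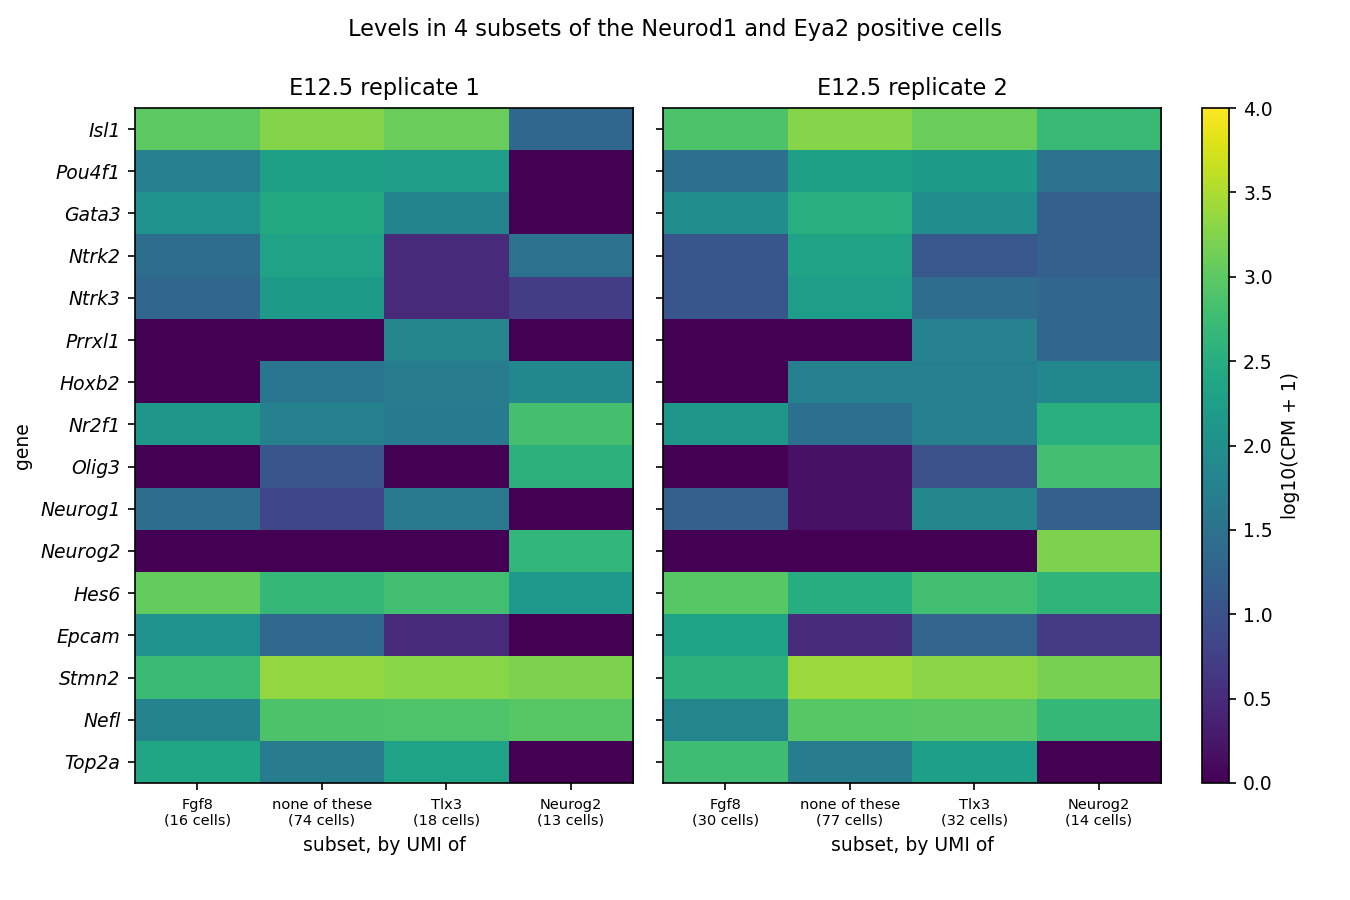
Levels of 16 genes in log10(CPM + 1), shown as colour, in 4 subsets of the member cells in each E12.5 library. Ntrk2, Ntrk3 and Gata3 are highest in the cells without any of the marker genes, Prrxl1 in the Tlx3 cells, Olig3 and Nr2f1 in the Neurog2 cells, and Epcam, Hes6 and Top2a in the Fgf8 cells.

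In the largest subset, with none of the marker genes, the receptors Ntrk2 and Ntrk3 and the factor Gata3 were highest. Isl1 stood there at 1820 and 1852 CPM, Pou4f1 at 183.5 and 189.6 CPM and Gata3 at 264.5 and 321 CPM. Ntrk2 was at 201 and 218 CPM and Ntrk3 at 151 and 175 CPM, and the other subsets held at most 30.2 CPM of Ntrk2 and 26.4 CPM of Ntrk3. Stmn2 was at 2245 and 2537 CPM and Nefl at 764.5 and 913 CPM. Neurog1 was at 6.14 and 0.553 CPM there, and Fgf10, at 90.2 and 104.5 CPM, was highest in this subset in both libraries.

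Fgf8 cells had the highest Epcam and cell cycle levels of the subsets. Epcam was at 113 and 211 CPM, against at most 22.7 CPM in the others, and Sox2 at 51.7 and 57.9 CPM. Hes6 reached 1130 and 923 CPM, against 463 and 304 CPM in the cells with none of the genes. The summed cell cycle level was 11920 and 17700 CPM, against 3756 and 3642 CPM. Stmn2 was at 539 and 366 CPM and Nefl at 61.5 and 67.3 CPM, the lowest of the 4 subsets in both libraries. Eya2 and Neurod1, which the rule used, were at 310 and 284 CPM and at 1440 and 1402 CPM. Neurog1 was at 27.1 and 16.2 CPM, under its level in the Tlx3 cells (40.8 and 66.5 CPM).

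Tlx3 cells held little Ntrk2 and Ntrk3. Ntrk2 was at 2.15 and 11.3 CPM and Ntrk3 at 2.15 and 26.4 CPM. Prrxl1 and Prdm12, factors of pain-sensing neurons, were at 64.4 and 59.0 CPM and at 143.8 and 146.8 CPM, and Prrxl1 had no UMI in the Fgf8 cells or in those with none of the genes. Isl1 was at 1217 and 1251 CPM and Gata3 at 62.2 and 89.1 CPM. Their summed cell cycle level was 7875 and 7491 CPM.

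The Neurog2 cells held the least Insm1 of the subsets, at 38.9 and 221.5 CPM. Tlx3 was at 1166 and 987 CPM in them, Olig3, a factor of the dorsal hindbrain, at 371 and 636 CPM, and Nr2f1 at 669 and 342 CPM. Isl1 was at 21.6 and 519.5 CPM, with replicate 2 the higher, and Neurod1 at 155.5 and 439 CPM, while Top2a had no UMI. When all cells with Neurog2 or Tlx3 were left out of every class, 687 genes were higher than in neurons in place of 1095.

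Markers of further cell types were low in the member sums, apart from 2 cortical ones. Of 4 endothelial markers 1 was detected in each library (2.93 and 1.95 CPM summed), of 4 macrophage markers 1 (0.366 and 0.278 CPM) and of 3 melanocyte markers 0 and 1. Glial markers summed to 12.4 and 33.4 CPM, and mesenchymal markers to 12.1 and 14.5 CPM with Twist1 at 0. Of 4 cortical markers 2 and 3 were detected (45.4 and 39.5 CPM summed, against 0.603 and 0.779 CPM in epithelium and 56.7 and 57.8 CPM in neurons), and olfactory markers summed to 6.22 and 9.45 CPM, with Omp at 0 in replicate 1. At least 2 UMIs of olfactory, cortical or pituitary markers were held by 17 and 22 members. The part of these cells in the comparisons within E12.5 was not tested. Only 1 and 4 members were among the top 5% of doublet scores of their library.

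The same rule was applied to the E14.5 libraries, where it found 198 of 1569 cells (12.6%) and 292 of 3049 cells (9.58%). The mean share was 20.5% ± 2.61 (SD, n = 2) at E12.5 and 11.1% ± 2.15 (SD, n = 2) at E14.5. The difference of -9.42 percentage points was tested by exact permutation (two-sided p = 0.333, the lowest value possible with 2 libraries per age). Without cells that held markers of other tissues the mean share was 18.9% ± 2.61 and 4.46% ± 3.26 (difference -14.5 points), among cells with Egfp 19.6% ± 1.29 and 3.99% ± 1.84 (-15.6 points), and after thinning to 10000 UMIs 14.9% ± 2.29 and 8.70% ± 1.98 (-6.19 points), each over 2 libraries per age. Xist had a UMI in nearly all cells of both E12.5 libraries and in few of both E14.5 libraries (98.6% and 98.1% against 0.319% and 0.394%), and Y-linked genes had the opposite pattern, so age and sex cannot be told apart.

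Many E14.5 cells that met the rule held genes of other tissues. By the planned limit of at least 2 UMIs of olfactory, cortical and pituitary markers, 131 and 252 of them were left out, against 17 and 22 at E12.5. In the remaining 67 and 40 cells, Lhx2, a factor of the olfactory epithelium and forebrain, was still at 869 and 787 CPM, against 0 and 0.328 CPM at E12.5. With these cells, edgeR called 476 of 10416 genes higher (4.57%) and 330 lower (3.17%) at the later age. The largest increases were Lhx2, Fezf1, Dlx5, Emx2, Grp, Olig2, Ell3 and Uncx. The largest decreases included Fhl2, Hist1h2ap, Ccdc85b, Ddit3, Pgk1, Dcdc2a and Nme2. As an alternative added after the values were seen, cells with a UMI of Lhx2, Fezf1 or Emx2 were also left out, which kept 104 and 129 cells at E12.5 but only 36 and 21 at E14.5. In these cells 613 of 9585 genes were higher (6.40%) and 738 lower (7.70%) at E14.5.

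**Figure D5:**
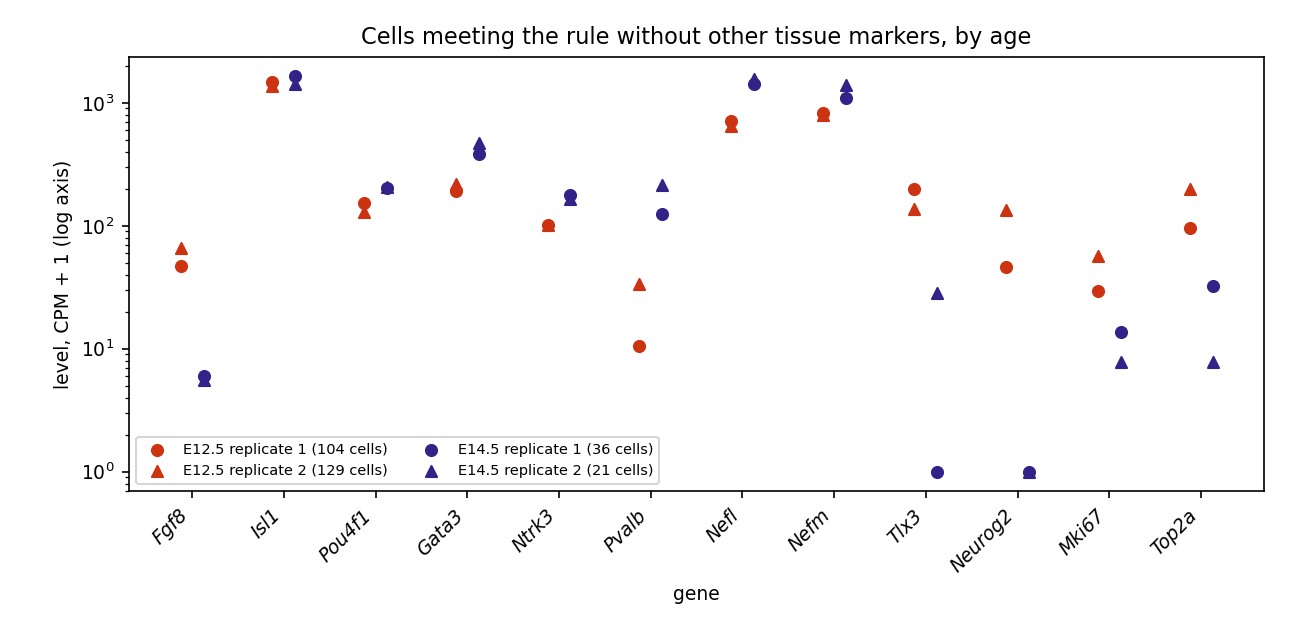
Levels of 12 genes in CPM + 1 (log axis) in cells meeting the rule at E12.5 (red) and E14.5 (blue), after cells with markers of other tissues, Lhx2, Fezf1 or Emx2 were left out; circles are replicate 1 and triangles replicate 2. Fgf8, Mki67 and Top2a are lower and Gata3, Ntrk3, Pvalb, Nefl and Nefm higher at E14.5, while Isl1 overlaps between the ages.

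The age differences depended on which cells were compared. The summed cell cycle level was 5617 and 7346 CPM at E12.5 and 9560 and 9709 CPM at E14.5 over all cells meeting the rule, and 5626 and 7852 CPM against 8400 and 4232 CPM in the planned set of cells. Without the cells that held Lhx2, Fezf1 or Emx2 it was 5626 and 7929 CPM against 3813 and 2743 CPM, so that only in this smallest set did both E14.5 libraries lie below E12.5. In the planned set edgeR called 0 of 42 S phase genes in either direction (0 higher and 2 lower at an unadjusted p under 0.05, 0 and 0 in DESeq2), 0 higher and 1 lower of 53 G2/M genes (2 and 4 unadjusted, 0 and 1 in DESeq2), 2 higher and 0 lower of 16 Notch genes (3 and 6 unadjusted, 2 and 0 in DESeq2) and 3 higher and 1 lower of 18 proneural genes. Of 18 cytoskeleton genes 0 were higher and 2 lower there (6 and 3 unadjusted, 0 and 2 in DESeq2). Fgf8 was lower in the planned set too (log2 -4.35, edgeR adjusted p = 0.0020).

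The smallest set gave other counts. Of 41 genes of S phase tested 27 were lower and 0 higher in edgeR (median log2 difference -1.39, against 0.01 over all genes tested), and of 52 G2/M genes 36 were lower and 1 higher (median -2.07). Fgf8 was at 45.8 and 65.5 CPM at E12.5 and at 5.05 and 4.54 CPM at E14.5, lower by 3.56 ± 0.43 on the log2 scale (edgeR adjusted p = 0.00028). Hes6 was lower too (544 and 528 CPM against 400 and 254, log2 -0.72, adjusted p = 0.0064 in edgeR), but not in the planned set (-0.025). Of 15 Notch genes 8 were lower and 0 higher (11 and 0 at an unadjusted p under 0.05), and of 16 proneural genes 2 were higher and 7 lower. Neuronal cytoskeleton genes were higher in 12 of 18 cases and lower in 2. Nefl was at 707 and 652 CPM at E12.5 and 1424 and 1576 CPM at E14.5 (log2 1.09 ± 0.08, edgeR adjusted p = 1.4e-05), and its 0.48 in the planned set did not pass.

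Gata3, Ntrk3 and Pvalb were higher at E14.5 in the smallest set, whereas none of them passed in the planned set (log2 0.12, -0.28 and 1.92). In the smallest set Gata3 was at 193 and 219 CPM at E12.5 and 383 and 472 CPM at E14.5 (log2 0.98, edgeR adjusted p = 0.00033), and Ntrk3 at 100.6 and 100.4 CPM and then 178 and 163 CPM (log2 0.72). Pvalb, a calcium buffer of spiral ganglion neurons, was at 9.5 and 32.6 CPM and then 124 and 213 CPM (log2 2.81, edgeR adjusted p = 0.00060). Isl1 did not pass in the smallest set (1463 and 1371 CPM, then 1638 and 1422 CPM, log2 0.07, adjusted p = 0.66) and was lower in the planned set (-0.84, edgeR adjusted p = 0.0035). Insm1 (-0.23) and Nhlh1 (0.16) did not pass in the smallest set. In the smallest set Neurog2 had no UMI at E14.5, and Tlx3 was at 0 and 27.2 CPM against 198 and 137 CPM at E12.5. The planned set held Neurog2 at 1.27 and 28.6 CPM at E14.5, against 44.9 and 132 CPM at E12.5. Tlx3 was there at 0 and 46.7 CPM, against 198 and 147.5 CPM. Other groups moved with age in the smallest set as well. Of 13 early response genes, which cell dissociation can induce, 2 were higher and 7 lower, with Fos at log2 1.32 and Ier2, Egr1 and Jun at -1.23, -1.35 and -0.72. The glial marker Fabp7 (8.64 and 19.95 CPM, then 80.7 and 199.5 CPM, log2 3.06) and the epithelial keratin Krt18 (log2 2.17) were higher. Their part in the age differences was not tested.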

How the data were processed

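The authors deposited, for each library, a matrix of unnormalized UMI counts of genes by barcodes. Cell Ranger 3.0.0 and the build mm10 are named per the submitters' processing notes. The annotation and the cell calling settings are not given by the sources used here. GENCODE vM21 held 98.7% of the gene identifiers, and promoter windows came from RefSeq.

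The members, gene lists and comparisons were chosen with earlier results on these data known. Cells were filtered as described above, which kept 648 and 684 (E12.5) and 1569 and 3049 (E14.5) of 694, 737, 1705 and 3298 barcodes. The kept cells held 12890032 to 73225277 UMIs per library, and libraries shared at most 1 barcode. Doublets numbered 2, 2, 4 and 2 by scrublet (scanpy 1.11.5, with 6% set as the rate), too few to rely on. These cells stayed in, and removing the top 5% of scores was an alternative.

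Counts were summed per class and library and tested by the quasi-likelihood F test of edgeR 4.0.16 (R 4.3.3, low counts removed by filterByExpr, TMM factors, Benjamini-Hochberg adjustment over all genes tested, threshold 0.05). Within E12.5, 1 fit over 6 sums had the library as a term, and SE is that of the fitted log2 difference. The rule genes Neurod1, Eya2, Epcam and Stmn2 were left out. Named genes were the 12 largest changes per direction (8 between ages) among genes past the threshold that had a mean log2 CPM of 5 or more and classes that did not overlap. Numbered models, Xist and ribosomal, mitochondrial, hemoglobin and Y-linked genes were not ranked. A few genes that the rule or lists would name are not reported here. The 10 genes upward in both comparisons needed a mean log2 CPM of at least 4, and list members may be named from 10 CPM in any class. A few genes singled out in subsets (Olig3, Prdm12, Nr2f1) and the Fgf8 values by age were chosen after their values were seen. The fits were tested on simulated sums with known changes. Alternatives were DESeq2 1.42.0, no filter on low counts, no library term, thinning to 10000 UMIs, other cell filters and leaving out each library.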

Additional observations from a re-analysis of the deposited data

How the results depend on the processing

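Few counts of genes depended on the cell filters, but several depended on the tool and on which neurons or tissues were included. With DESeq2, 1832 genes were higher and 1670 lower than in epithelium, 524 higher and 508 lower than in neurons, and 197 lower at E14.5. Members under 3 Stmn2 against neurons without Epcam gave 1953 higher and 1991 lower. Neurons with Isl1 gave 432 and 256, and leaving out cells with Neurog2 or Tlx3 gave 687 higher. Between ages, no filter on low counts gave 1148 higher and 1070 lower, leaving no cell out 2964 and 2629, and leaving out cells with Lhx2, Fezf1 or Emx2 738 lower. Leaving out 1 library at a time gave 84 to 1185 higher and 28 to 1310 lower between ages: 101 and 36 without E12.5 replicate 1, 84 and 28 without E12.5 replicate 2, 1185 and 1310 without E14.5 replicate 1, and 1048 and 1040 without E14.5 replicate 2, with the lone library assumed to vary like the other age. The share difference ran from -11.3 to -7.57 points. For the comparisons within E12.5 it left 1 sum per class, so only log2 differences were computed, and none of 111 and 68 genes changed sign. That is no support, since genes were named for passing or for classes that did not overlap in these same 2 libraries, which nearly fixes the sign.

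These differences changed sign, and the cause was not tested. Without Neurog2 and Tlx3 cells, Hes5 was at -0.27 against epithelium and -0.52 against neurons. Against neurons with Isl1, Uncx was at 0.11, Robo3 1.81, Lamp5 2.48, Msc -0.34, Pou4f1 -0.39, Ntrk3 -0.41, Eya1 -0.35, Gata3 -1.07 and Nefm -0.62. With members under 3 Stmn2, Nhlh1 was at -0.43, Nhlh2 -0.58, Msc -4.82, Id3 1.46, Pou4f1 -0.91, Ntrk2 -4.59, Ntrk3 -4.98 and Nefm -3.28. Between ages, Isl1 was at 0.067 and Neurog1 at -0.84 without Lhx2, Fezf1 and Emx2 cells, Mki67 at 0.81 with no cell left out and Top2a at 0.36 without E14.5 replicate 2 (-1.63 to 0.37 over the libraries left out, the highest without E12.5 replicate 2).

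The replicate numbers did not pair the ages (r = -0.0991 over genes between deviations of same-numbered libraries). With a replicate block between ages 462 genes were higher and 291 lower, and with no replicate block within E12.5 the counts were 2969 and 3020 against epithelium and 1254 and 1248 against neurons. A planned comparison of members with Epcam and with Stmn2 was not run, since the 9 cells on the Epcam side in replicate 1 (16 in replicate 2) were under the minimum of 15 per side.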
